A study of Mus musculus with 63 samples.

Results

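The genes described here are 10 components and receptors of the complement system, read out in organotypic entorhino-hippocampal tissue cultures of the mouse with and without an entorhinal cortex lesion. They were chosen by symbol from a list of known complement genes, and all 10 were found among the 55291 gene symbols of the count tables. C1qa, C1qb and C1qc encode the chains of C1q, the recognition protein of the classical pathway. C3 and C4b encode the proteins whose fragments become attached to surfaces, and Serping1 encodes the C1 inhibitor. C3ar1 and C5ar1 encode the receptors for the released fragments C3a and C5a. Itgam and Itgb2 encode CD11b and CD18, which together form complement receptor 3, the phagocytic receptor for surface-bound C3 fragments.

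In the brain, microglia are the main source of C1q, and C3 and C4 are made by astrocytes as well as by microglia. In the classical pathway, C1q bound to a surface activates the proteases C1r and C1s, which cleave C4 and C2 to form an enzyme that cleaves C3, and the C1 inhibitor blocks these proteases. Complement tagging of synapses and their uptake through complement receptor 3 is a known route by which microglia remove synapses during development and after injury. The entorhinal cortex lesion (ECL) cuts the perforant path, the input from the entorhinal cortex to both the dentate gyrus (DG) and CA3. Dentate granule cells project in turn to CA3. The study describes the lesion as a partial denervation of granule cells and of CA3 pyramidal cells.

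The cultures came from pups of either sex at postnatal days 3 to 5 and had matured for at least 18 days. Wildtype cultures (WT, C57BL/6J, Synpo+/+) and cultures labelled synaptopodin deficient (Synpo-/-, B6.129-Synpotm1Mndl/Dllr) were used, and regional ECL cultures were taken 3 days after the cut. In the regional experiment, each of 39 libraries held the DG or the CA3 area of 1 culture. It comprised 4 control and 7 ECL libraries of WT DG, 7 and 4 of labelled Synpo-/- DG, 2 and 3 of WT CA3, and 6 and 6 of labelled Synpo-/- CA3. In the co-immunoprecipitation (coIP) experiment, each of 24 libraries came from a pool of whole cultures. RNA recovered with an antibody against synaptopodin (coIP) was sequenced beside RNA of the same lysate (input), with 5 WT control pairs, 5 WT ECL pairs and 2 pairs labelled synaptopodin deficient, whose lesion state the labels do not give. These are cultured slices without circulating blood, and the labels do not say which cultures came from the same animal, so p-values measure the spread between libraries.

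Libraries held between 14055930 and 46043990 counted reads in the regional experiment and between 11601154 and 53682143 in the coIP experiment. Values are CPM, which are read counts relative to library size after TMM scaling. Synpo itself went against the genotype labels in DG control: labelled Synpo-/- libraries held 40.9 to 69.3 CPM and WT libraries 19.1 to 24.4 CPM, a log2 difference of 1.17 (SE 0.126, adjusted p = 0.000517). It did not pass in CA3 control (0.58, SE 0.145, adjusted p = 0.113) or after ECL (0.35 in DG and 0.25 in CA3). Synpo was higher in coIP than in input of WT control (0.47, adjusted p = 0.0107) and WT ECL (0.47, adjusted p = 0.00134). In pools labelled synaptopodin deficient it gave -0.03 (adjusted p = 0.896). Genotype is used below as labelled, although Synpo counts went against the labels in DG control. Prox1, a marker of dentate granule cells, lay between 120 and 217 CPM in DG libraries except WT ECL replicate 5. That library held 15.5 CPM, within the range of the CA3 libraries of 12.7 to 44 CPM. The main tests of the genes described here that include this library are also given without it. Tests of Synpo, of cell type markers and of other complement genes that include it are given only with it. All 4 WT DG control and both WT CA3 control libraries held more Xist than Y-linked reads, against 4 of 7 WT DG ECL and 1 of 3 WT CA3 ECL libraries, so lesion results are also given within the libraries with more Xist. All 14 microglial markers were detected in every group, and 5 markers of blood-derived monocytes and granulocytes (Ccr2, Ly6c2, S100a8, S100a9 and Plac8) summed to between 0 and 2.36 CPM per library over both experiments. Mrc1 and Lyve1, markers of border-associated macrophages, summed to between 1.78 and 12.1 CPM.

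The 3 C1q genes lie next to each other on the minus strand of chromosome 4 (GRCm38), C1qb at chr4:136880129-136886187, C1qc at chr4:136889804-136893065 and C1qa at chr4:136895917-136898803. C3 lies at chr17:57203970-57228136 and C4b at chr17:34728380-34743882, both on the minus strand. Serping1 (chr2:84765387-84775444), C3ar1 (chr6:122847138-122856161) and C5ar1 (chr7:16246743-16259540) are also on the minus strand, and Itgam (chr7:128062640-128118491) and Itgb2 (chr10:77530252-77565708) on the plus strand. Exonic lengths ran from 1040 bp in C1qa and 1088 bp in C1qb to 5143 bp in C3 and 5695 bp in C4b. Itgam shares 3450 of its 5024 exonic bp with the annotated gene Gm49368, which held at most 6 reads in any library, and reads in the shared part could not be assigned to one of them. C4b has a near-identical paralogue, C4a, which held at most 103 reads in any library.

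RefSeq promoter sequences (GRCm38.p6) were given for 6 of the 10 genes and not for C1qa, C4b, Serping1 and Itgb2. The 250 bases before the annotated start of C1qb, C1qc and Itgam are shown because these were the members whose window held GAGGAA, the core of the sequence bound by the myeloid transcription factor PU.1. Capitals mark GAGGAA or its reverse complement TTCCTC. The sequences lie at chr4:136886201-136886450 (minus strand), chr4:136892915-136893164 (minus strand) and chr7:128062390-128062639 (plus strand), each written 5′ to 3′ on the strand of its gene.
C1qb: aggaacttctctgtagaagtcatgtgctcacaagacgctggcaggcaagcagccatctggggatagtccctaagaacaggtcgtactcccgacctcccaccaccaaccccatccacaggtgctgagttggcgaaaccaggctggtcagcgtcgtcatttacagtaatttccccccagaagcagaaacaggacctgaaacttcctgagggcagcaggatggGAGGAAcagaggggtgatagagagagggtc
C1qc: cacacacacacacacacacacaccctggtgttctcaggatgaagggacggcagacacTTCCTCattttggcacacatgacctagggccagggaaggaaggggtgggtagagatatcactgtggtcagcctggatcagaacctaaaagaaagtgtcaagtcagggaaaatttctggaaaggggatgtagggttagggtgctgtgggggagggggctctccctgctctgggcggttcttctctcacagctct
Itgam: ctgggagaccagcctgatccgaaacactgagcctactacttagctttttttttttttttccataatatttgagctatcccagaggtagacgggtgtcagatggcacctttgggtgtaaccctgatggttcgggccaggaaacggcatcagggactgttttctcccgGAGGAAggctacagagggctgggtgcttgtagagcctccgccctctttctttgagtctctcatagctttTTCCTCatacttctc
The match begins 30 bases before the start in C1qb and 193 bases before it in C1qc, and the pair in Itgam begins 84 and 15 bases before it. These starts are those of RefSeq. In C1qb and C1qc they differ from the gene coordinates given above, and part of the C1qc window lies inside the gene by those coordinates. GAGGAA, searched on both strands, was held by 23.3% of all 32851 promoter windows of this length. Of 4 other motifs searched on both strands, TTGCNNAA was found in C3 (held by 9.56% of windows), TATAAA in C3ar1 (12.4%), and TTCNNNGAA (7.02%) and the core of the interferon-stimulated response element (2.98%) in none of the 6. Windows of C3, C3ar1 and C5ar1 held no GAGGAA, and a match describes letters and not binding.

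Levels between genes were compared per length, as CPM per kilobase of exon (FPKM). C1qb was the most abundant member in each of the 14 groups, at 143 ± 23.7 FPKM in WT DG control (SD, n = 4) and 415 ± 33.3 FPKM in labelled Synpo-/- DG ECL (SD, n = 4). C1qa (38.2 ± 6.81 FPKM) and C1qc (35.5 ± 3.26 FPKM) followed in WT DG control and differed by less than the larger of their SDs. C4b (8.41 ± 0.47 FPKM), Serping1 (8.24 ± 1.93 FPKM) and C3ar1 (6.93 ± 1.62 FPKM) formed a middle group whose neighbours also differed by less than the larger SD. Itgb2 (2.08 ± 0.25 FPKM), Itgam (2.04 ± 0.226 FPKM), C3 (1.83 ± 0.474 FPKM) and C5ar1 (1.1 ± 0.287 FPKM) were lowest, and of these only C3 and C5ar1 were neighbours that differed by more than the larger SD. C5ar1 rested on the fewest reads, 36 to 338 per regional library. In whole-culture WT control input the order differed: C3ar1 (19 ± 1.87 FPKM), Itgb2 (11.3 ± 2.43 FPKM) and C5ar1 (8.19 ± 1.44 FPKM) stood above C4b (5.74 ± 1.27 FPKM), each neighbouring pair of these 4 differing by more than the larger SD, and Itgam was lowest at 2.02 ± 0.58 FPKM (each n = 5). The regional and coIP experiments were sequenced separately with different read lengths, so levels between them were not tested.

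**Figure D1:**
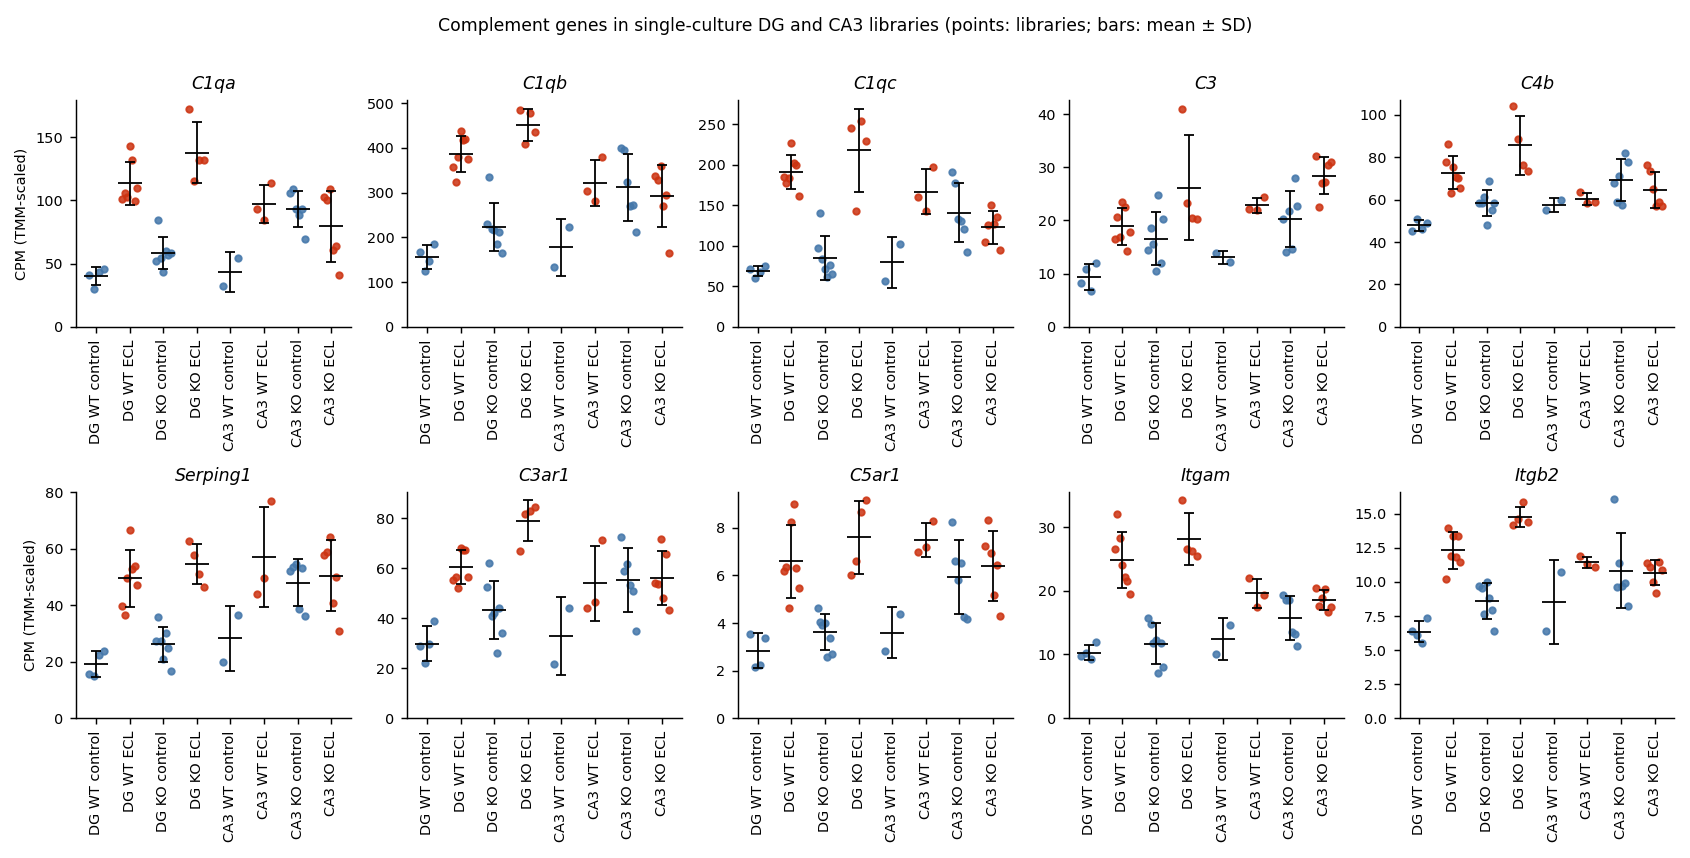
CPM of the 10 complement genes in the 39 single-culture libraries, grouped by region, labelled genotype and lesion; points are libraries (blue control, red ECL) and bars are the mean ± SD. In WT DG each of the 10 genes has all 7 ECL libraries above all 4 control libraries, whereas in labelled Synpo-/- CA3 the control and ECL libraries overlap for each gene. The share of all genes with such separation was not computed.

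The first comparison asked how the denervated DG differed from control DG in WT cultures. All 10 complement genes were higher after ECL, from 1.49-fold for C4b to 2.79-fold for C1qa, and for each gene the 7 ECL libraries lay above the 4 controls. The share of all genes with such separate groups was not computed, here or in the comparisons below. Of all 23720 genes tested, 7.86% were called higher (edgeR quasi-likelihood test, Benjamini-Hochberg adjusted p under 0.05), and the median log2 fold change of the 10 genes was 1.21 beside -0.00 over all genes. In bulk tissue, more cells of a type and more RNA per cell cannot be told apart.

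C1qa, the A chain of C1q, held 40.8, 29.6, 43.2 and 45.6 CPM in the control libraries and 99.2 CPM (lowest), 106 CPM (median) and 143 CPM (highest) in the ECL libraries. Its log2 fold change was 1.48 (SE 0.142, adjusted p = 2.92e-05). C1qb held 168, 124, 147 and 184 CPM in controls and 323, 380 and 438 CPM (lowest, median, highest) after ECL. The C1qb groups did not overlap, with a log2 fold change of 1.29 (SE 0.131, adjusted p = 4.64e-05). C1qc held 71.5, 60.2, 67.8 and 74.9 CPM in controls against 161, 185 and 227 CPM after ECL. Its change of 1.45 (SE 0.113, adjusted p = 1.01e-05) had the smallest adjusted p of the 10. Per length, C1qc stood at 0.943 ± 0.11 of C1qa in control and 0.916 ± 0.105 of C1qa in ECL libraries (SD), and C1qb at 3.77 ± 0.349 and 3.3 ± 0.404 times C1qa. Without WT ECL replicate 5 the ECL ratios were 0.932 ± 0.105 and 3.35 ± 0.422 (SD, n = 6).

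C3, the central component of all complement pathways, was low in WT DG controls, at 8.22, 10.9, 6.65 and 12 CPM. After ECL it held 14.2, 17.9 and 23.5 CPM (lowest, median, highest). All ECL libraries were above the highest control, and the log2 fold change was 0.97 (SE 0.174, adjusted p = 0.0032). C4b, the mouse C4 of the classical pathway, held 45.3, 51, 46.1 and 49.2 CPM in controls and 63, 70.8 and 86.4 CPM after ECL. Its change was the smallest of the 10, at 0.57 (SE 0.101, adjusted p = 0.00282). C4a, by comparison, held 1.01 to 2.34 CPM in controls and 0.83 to 2.17 CPM after ECL.

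Serping1, the inhibitor of C1r and C1s, held 15.6, 15, 22.4 and 23.6 CPM in controls and 36.4, 49.7 and 66.7 CPM (lowest, median, highest) after ECL. It rose by 1.34 on the log2 scale (SE 0.178, adjusted p = 0.000414), with all ECL libraries above the highest control, in the same direction as the C1q chains.

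C3ar1, the receptor for C3a, held 28.8, 21.9, 29.8 and 38.9 CPM in controls and 51.9, 56.5 and 67.9 CPM after ECL, a log2 fold change of 0.98 (SE 0.141, adjusted p = 0.000704). C5ar1, the receptor for C5a, held 3.55, 2.16, 2.22 and 3.37 CPM in controls and 4.63, 6.31 and 8.99 CPM after ECL, a change of 1.18 (SE 0.209, adjusted p = 0.00282). Neither receptor overlapped between the groups. Itgam held 9.69, 10.2, 9.34 and 11.9 CPM in controls and 19.5, 24.1 and 32.1 CPM after ECL (log2 fold change 1.25, SE 0.15, adjusted p = 0.000213). Its partner Itgb2 held 6.39, 6.13, 5.52 and 7.35 CPM in controls and 10.2, 11.9 and 14 CPM after ECL (0.92, SE 0.134, adjusted p = 0.000764). Both chains of complement receptor 3 were therefore higher, as were both fragment receptors.

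Without WT ECL replicate 5, the library with Prox1 at the CA3 level, all 10 genes were still called higher, with log2 fold changes of 0.57 to 1.43 and adjusted p of 6.51e-07 to 0.00226. Within the 4 control and 4 ECL libraries that held more Xist than Y-linked reads, 10 of 10 were called higher, with log2 fold changes of 0.53 to 1.57. Removing the trend of fold change with gene length moved the median of all genes by -0.14 and the share of calls that were higher from 64.6% to 36.4%. The 10 genes stayed above that shift, from 0.44 for C4b (adjusted p = 0.0184) to 1.28 for C1qa (adjusted p = 3.32e-05). All 14 microglial markers were called higher in the same comparison, and their summed level was 410 to 563 CPM in control and 903 to 1173 CPM in ECL libraries. Of 10 astrocyte markers 7 were called higher, with sums of 4726 to 5488 CPM and 7341 to 9420 CPM. Of the 5 monocyte and granulocyte markers 1 could be tested and was not called, with sums of 1.4 to 2.36 CPM in control and 0.622 to 2.12 CPM in ECL libraries, and neither Mrc1 nor Lyve1 was called, with sums of 4.57 to 9.34 CPM and 2.34 to 9.7 CPM. The part of these cell types in the result was not tested.

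In DG libraries labelled Synpo-/-, 9 of the 10 genes were higher after ECL, where 5.17% of 23310 genes tested were called higher. The median log2 fold change of the 10 was 0.99 beside 0.01 over all genes. C1qa held 43.6 CPM (lowest), 57.1 CPM (median) and 84.7 CPM (highest) in 7 control libraries and 172, 115, 132 and 132 CPM in the 4 ECL libraries (log2 fold change 1.19, SE 0.143, adjusted p = 0.00011). C1qb held 165, 217 and 336 CPM in controls and 485, 408, 478 and 436 CPM after ECL (0.97, SE 0.148, adjusted p = 0.000699). C1qc held 61.4, 76.1 and 140 CPM in controls and 245, 143, 254 and 229 CPM after ECL (1.31, SE 0.198, adjusted p = 0.00066). None of the C1q chains overlapped between the groups, although ECL replicate 2 of C1qc lay just above the highest control.

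C3 was the exception: it held 10.5, 15.6 and 24.8 CPM (lowest, median, highest) in these controls and 40.9, 23.2, 20.4 and 20.2 CPM after ECL. The C3 groups overlapped, and its log2 fold change of 0.62 (SE 0.214, adjusted p = 0.0882) did not pass. It passed without control replicate 5, at 0.73 (adjusted p = 0.041). C4b held 48, 58.4 and 69 CPM in controls and 104, 88.8, 76.5 and 73.6 CPM after ECL (0.51, SE 0.106, adjusted p = 0.00654). Serping1 held 16.8, 27.2 and 35.9 CPM in controls and 62.8, 57.7, 51 and 46.5 CPM after ECL (1.01, SE 0.157, adjusted p = 0.000773). For both C4b and Serping1 the lowest ECL library was above the highest control.

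Among the receptors, C3ar1 held 26.2, 42.1 and 62 CPM in controls and 67, 81.5, 82.9 and 84.6 CPM after ECL (0.82, SE 0.172, adjusted p = 0.00669). C5ar1 held 2.56, 3.92 and 4.62 CPM in controls and 6.02, 6.6, 8.67 and 9.17 CPM after ECL (1.03, SE 0.182, adjusted p = 0.00214). Itgam held 7.02, 11.8 and 15.8 CPM in controls and 34.2, 26.5, 26.3 and 25.4 CPM after ECL (1.21, SE 0.183, adjusted p = 0.000654). The groups were separate for these 3 receptor genes. Itgb2 held 6.43, 8.85 and 10 CPM in controls and 14.2, 14.6, 15.9 and 14.4 CPM after ECL (0.74, SE 0.126, adjusted p = 0.00174), again without overlap. Within the libraries with more Xist 7 of 10 were called higher (log2 fold changes 0.29 to 1.18), and within those with more Y-linked reads 9 of 10 (0.63 to 1.71). Of the 14 microglial markers 9 were called higher, with sums of 456 to 1002 CPM in control and 958 to 1252 CPM in ECL libraries, and of the 10 astrocyte markers 8. Their part in the result was not tested.

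**Figure D2:**
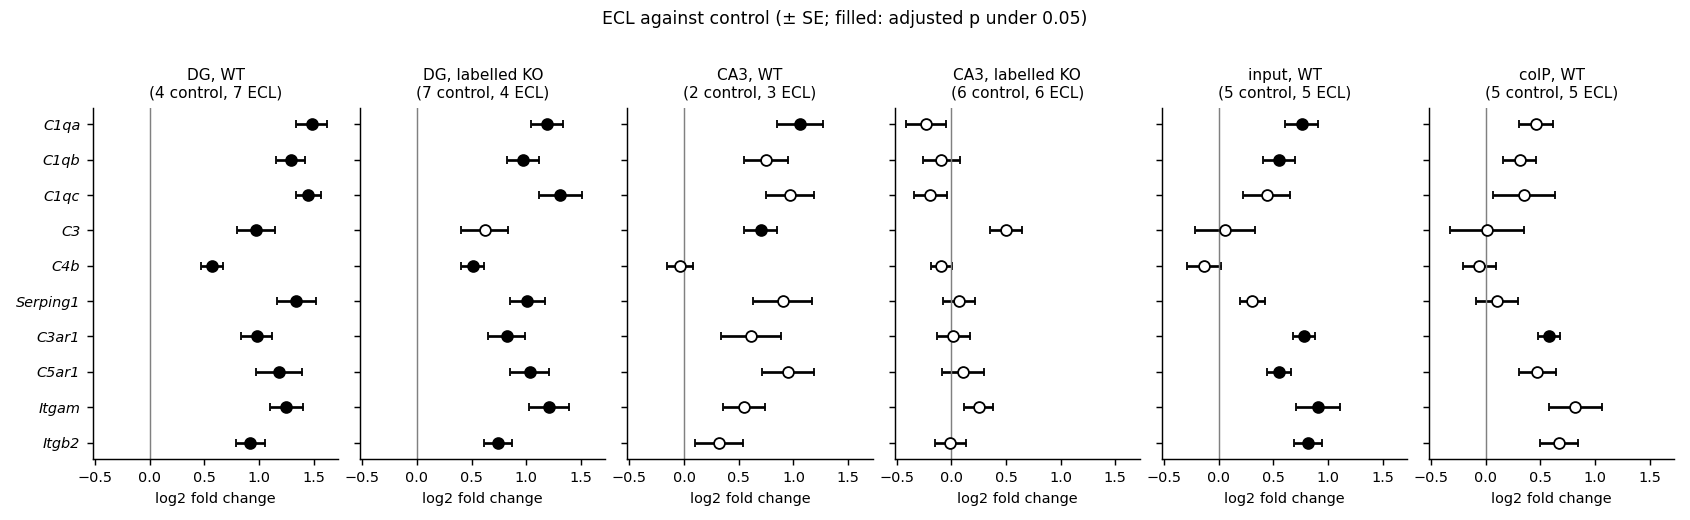
Log2 fold change (± SE) of ECL against control for the 10 complement genes in 6 comparisons, with filled points for adjusted p under 0.05. Filled points number 10 in WT DG, 9 in labelled Synpo-/- DG, 2 in WT CA3, 0 in labelled Synpo-/- CA3, 6 in WT input and 1 in WT coIP.

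In CA3 of WT cultures, with 2 control and 3 ECL libraries, C1qa and C3 were called higher among the 10, where 1.50% of 22340 genes tested were called higher. C1qa held 32.1 and 54.6 CPM in control and 93.4, 84.3 and 114 CPM in ECL libraries (log2 fold change 1.06, SE 0.209, adjusted p = 0.0409). C3 held 13.9 and 12.2 CPM in control and 22.1, 22 and 24.5 CPM in ECL libraries (0.70, SE 0.148, adjusted p = 0.0469). For both genes the groups were separate. C1qc held 57 and 102 CPM against 160, 143 and 197 CPM (0.97, SE 0.22, adjusted p = 0.0571), and C1qb held 133 and 223 CPM against 303, 281 and 380 CPM (0.75, SE 0.201, adjusted p = 0.0774). Apart from C4b, each of the 10 genes had its ECL libraries above both controls. With 2 against 3 libraries such separation is easily reached, and its share over all genes was not computed. C4b, at 55.2 and 60 CPM against 63.5, 58.5 and 59.1 CPM, gave -0.04 (SE 0.119, adjusted p = 0.872).

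These WT CA3 calls rested on few libraries. Leaving out control replicate 2 gave 6 calls, C3 not among them, whereas leaving out any other library gave none of the 10. DESeq2 called 6 and a fit of all 4 CA3 groups together called none. Where a control was left out, the arm of 1 control was assumed to vary like the ECL libraries. The libraries with more Xist were 2 controls and 1 ECL library, where 5 were called with the spread taken from the controls alone. Removing the length trend changed the share of calls that were higher from 84.6% to 59.4% over all genes, with a shift of the median of -0.13, and left 1 of the 10 called.

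In CA3 labelled Synpo-/-, with 6 libraries in each group, none of the 10 genes was called after ECL by edgeR, DESeq2 or without the filter on low counts, and 1 gene had an unadjusted p under 0.05, as did 7.27% of all genes. In this comparison 0.0770% of 20772 genes were called in either direction. The gene with the smallest p was C3, at 14, 21 and 28 CPM (lowest, median, highest) in control and 22.6, 28.9 and 32.1 CPM in ECL libraries, with overlapping groups (log2 fold change 0.50, SE 0.142, adjusted p = 0.368). C1qa held 69.3, 93.2 and 109 CPM in control and 41, 81.8 and 109 CPM after ECL (-0.23, SE 0.186, adjusted p = 0.844). All other log2 fold changes lay between -0.19 for C1qc and 0.25 for Itgam. Within libraries with more Xist than Y-linked reads C1qa was lower after ECL (-0.85, adjusted p = 0.0326) and within those with more Y-linked reads it gave 0.39 (adjusted p = 0.253), a difference between these libraries that was not tested. Microglial markers summed to 573 to 1281 CPM in control and 551 to 877 CPM in ECL libraries, and none of the 14 was called.

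Whether the lesion response differed between regions or labelled genotypes was tested as an interaction. In cultures labelled Synpo-/-, the lesion change was larger in DG than in CA3 for C1qa (difference in log2 fold change 1.39, SE 0.266, adjusted p = 0.00949), C1qc (1.48, SE 0.275, adjusted p = 0.00713), C1qb (1.04, SE 0.252, adjusted p = 0.0349) and Itgam (0.95, SE 0.238, adjusted p = 0.0429). In this test 0.877% of 25435 genes were called in that direction. C1qa and C1qc kept the call with each single library left out, whereas C1qb lost it in 13 and Itgam in 14 of 23 such fits. DESeq2 called 8 of the 10, all but C3ar1 and C3. With the length trend removed the share of calls that were larger in DG went from 78.5% to 68.3% over all genes. C3 showed the smallest difference, 0.10 (SE 0.276, adjusted p = 0.957). In WT cultures none of the 10 was called for the same difference (0 of 27783 genes were called), with values of 0.19 for C5ar1 to 0.65 for Itgam, all positive, and 3 genes at an unadjusted p under 0.05 (4.46% of all genes were). DESeq2 likewise called none of the 10, and none was called without WT DG ECL replicate 5 (0.10 to 0.68).

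The lesion change did not pass the test for a difference between the labelled genotypes in either region. In DG the differences (labelled Synpo-/- minus WT) lay between -0.39 for C3 (SE 0.299) and -0.07 for Itgam (SE 0.253), with adjusted p of 0.495 or more, no member at an unadjusted p under 0.05 none called by DESeq2 and 0.00381% of 26245 genes called. Without WT DG ECL replicate 5 they lay between -0.35 and -0.10, with none called. In CA3 they lay between -1.32 for C1qa (SE 0.372, adjusted p = 0.145) and -0.08 for C4b (SE 0.182, adjusted p = 0.845), and 5 of the 10 had an unadjusted p under 0.05, as did 17.1% of all genes, with 0 of 26821 genes called. DESeq2 called C1qa and C1qc in CA3. The WT CA3 controls numbered 2, and the SE of these differences ran up to 0.372. The differences between labelled genotypes were not tested within the libraries with more Xist.

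Within a state, DG and CA3 differed in the libraries labelled Synpo-/-, in opposite directions with and without lesion. In control, 4 genes were lower in DG than in CA3, where 12.5% of 21408 genes were lower. These were Serping1 (log2 difference -0.77, SE 0.14, adjusted p = 0.000377), C1qc (-0.63, SE 0.18, adjusted p = 0.0146), C5ar1 (-0.61, SE 0.189, adjusted p = 0.0227) and C1qa (-0.57, SE 0.122, adjusted p = 0.00172). After ECL, 7 genes were higher in DG, where 7.37% of 22767 genes were higher. They were C1qc (0.84, SE 0.157, adjusted p = 0.0021), C1qa (0.80, SE 0.219, adjusted p = 0.023), C1qb (0.64, SE 0.162, adjusted p = 0.0153), Itgam (0.61, SE 0.11, adjusted p = 0.00164), C3ar1 (0.51, SE 0.133, adjusted p = 0.0181), Itgb2 (0.48, SE 0.11, adjusted p = 0.00837) and C4b (0.42, SE 0.12, adjusted p = 0.0313). Leaving out 1 library at a time, C4b lost the call in 5 of 10 fits, C1qa in 4, C3ar1 in 3 and C1qb in 2. In control, C5ar1 lost it without CA3 replicate 1 (-0.49, adjusted p = 0.0721), and C1qb gained it without CA3 replicate 6 (-0.47, adjusted p = 0.0253) or DG replicate 2 (-0.50, adjusted p = 0.0104). Of 10 astrocyte markers 5 were lower in DG in control and 7 were higher in DG after ECL. Of 14 microglial markers 2 were lower in DG in control, close to the 12.5% of all genes. After ECL 7 of the 14 were higher in DG, beside 7.37% of all genes. The part of these cell types was not tested. In WT libraries none of the 10 was called between regions in either state by edgeR or DESeq2, where 5.39% of genes were called in control and 2.05% after ECL. Control differences ran from -0.54 to -0.11 with 1 gene at an unadjusted p under 0.05, and ECL differences from -0.21 to 0.41 with 4 genes (17.6% and 19.6% of all genes were). Without WT DG ECL replicate 5, C4b was called higher in DG after ECL (0.32, adjusted p = 0.0416).

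Between the labelled genotypes, none of the 10 passed in any region or state by edgeR. In control cultures all 10 were nonetheless on the side of the labelled Synpo-/- libraries, from 0.16 for Itgam to 0.78 for C3 in DG and from 0.20 for C4b to 1.05 for C1qa in CA3, with 7 of the 10 at an unadjusted p under 0.05 in each, as were 15.5% of all genes in DG and 16.4% in CA3. Of all genes tested 0.0166% were called in DG in either state, 0.00413% in CA3 control and 0.00891% in CA3 after ECL. C1qa in CA3 held 32.1 and 54.6 CPM in the WT controls and 69.3 to 109 CPM in the 6 labelled Synpo-/- controls, without overlap (log2 difference 1.05, SE 0.203, adjusted p = 0.0838). It passed without labelled Synpo-/- replicate 6 (1.12, adjusted p = 0.0336) or WT replicate 2 (1.50, adjusted p = 0.0324). DESeq2 called C1qa, C1qb, C1qc and Serping1 there, and C3 in DG control (0.82, adjusted p = 0.0339). In DG control C1qa (0.60, adjusted p = 0.0415) and C3 (0.88, adjusted p = 0.0332) passed without labelled Synpo-/- replicate 4. None of the 14 microglial markers was called in either control comparison, but all 14 were on the same side in both regions, and their sums were 410 to 563 CPM in WT and 456 to 1002 CPM in labelled Synpo-/- DG controls, and 431 to 746 CPM and 573 to 1281 CPM in CA3. Their part was not tested. The direction of these values rests on the genotype labels, which Synpo counts went against in DG control. In CA3 control the Synpo difference lay on the same side and did not pass (0.58, adjusted p = 0.113). All WT DG and CA3 control libraries held more Xist than Y-linked reads, against 4 of 7 labelled Synpo-/- DG and 4 of 6 labelled Synpo-/- CA3 controls. Labelled genotypes were not compared within the libraries with more Xist. After ECL the differences ran from 0.11 to 0.44 in DG and from -0.39 to 0.37 in CA3, with 2 genes at an unadjusted p under 0.05 in each (3.56% and 6.16% of all genes were) and none called by DESeq2. Without WT DG ECL replicate 5 the DG values ran from 0.13 to 0.49 with none called.

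The 14 microglial markers give a common scale for these changes, and the 10 genes did not all keep step with them. The mean log2(CPM + 1) of the markers was 1.00 higher after ECL in WT DG. Relative to that, C1qa was a further 0.49, C1qc 0.46, Serping1 0.33 and C1qb 0.32 higher, C3ar1 (0.01), C5ar1 (-0.02), C3 (-0.06), Itgb2 (-0.15) and Itgam (0.18) were between these values, and C4b was 0.41 lower. Without WT ECL replicate 5 the markers were 0.98 higher, and these values ran from 0.47 for C1qa to -0.39 for C4b. In labelled Synpo-/- DG the markers were 0.72 higher, with C1qc (0.65), Itgam (0.52) and C1qa (0.51) furthest above them and C4b (-0.18) furthest below. In WT CA3, where the markers were 0.64 higher, C1qa (0.54) stood furthest above them and C4b (-0.58) furthest below. In labelled Synpo-/- CA3 the markers changed by -0.12, with C3 (0.62) furthest above them and C1qa (-0.17) furthest below. In WT input the markers were 0.58 higher, with Itgam (0.30) furthest above them and C4b (-0.69) furthest below. C1qa (0.22) was also above the markers in input, whereas C1qb (-0.02), C1qc (-0.09) and Serping1 (-0.28) were not. These are differences of group means without a test, and the markers rose with the lesion themselves in DG. The added 1 narrows changes at low CPM. In WT DG C5ar1 differed by 0.98 on this scale, beside a log2 fold change of 1.18 in the edgeR test.

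**Figure D3:**
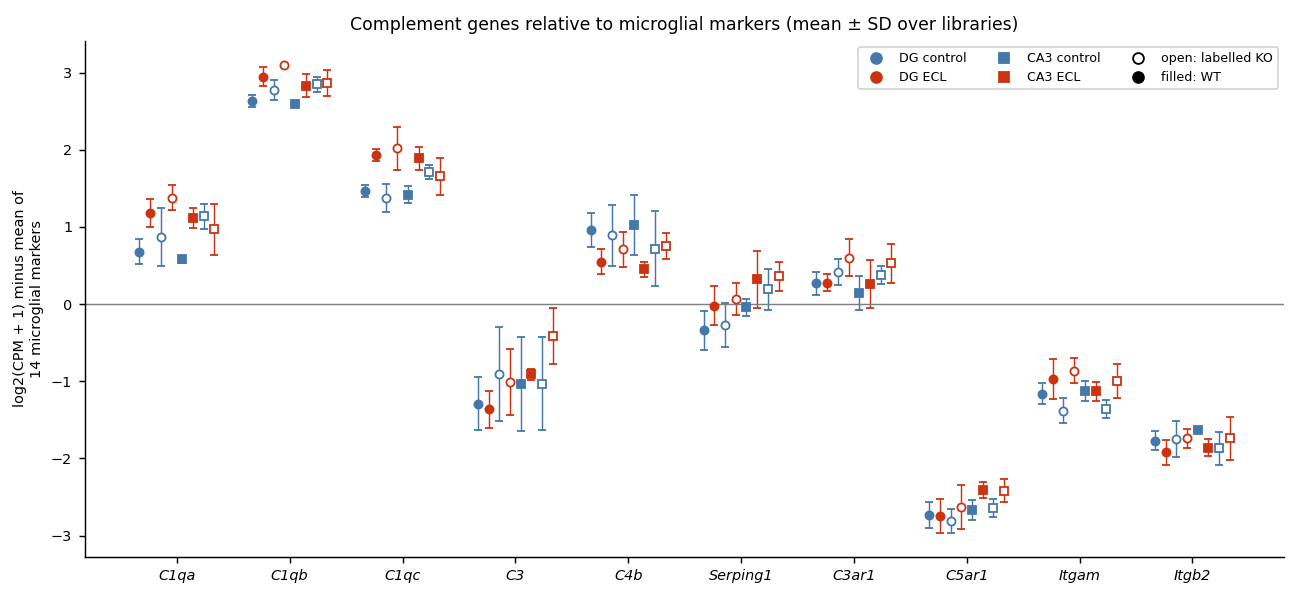
Level of each complement gene relative to the mean of 14 microglial markers, as log2(CPM + 1) of the gene minus the mean log2(CPM + 1) of the markers (mean ± SD over libraries), in the 8 regional groups, with blue for control, red for ECL, circles for DG, squares for CA3 and open symbols for labelled Synpo-/-. The C1q genes lie higher on this scale in ECL than in control DG, and C4b lies lower in ECL than in control DG.

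In whole-culture input RNA of WT cultures, 6 of the 10 genes were higher after ECL, where 2.45% of 17951 genes were called higher. C3ar1 held 72.8, 74.1, 82.9, 90.3 and 88.6 CPM in control and 113, 169, 141, 143 and 140 CPM in ECL pools (log2 fold change 0.78, SE 0.103, adjusted p = 0.00105). Itgb2 held 25.5, 29.2, 35.1, 43.7 and 39.6 CPM against 57, 64.5, 61.5, 62.4 and 62.5 CPM (0.82, SE 0.127, adjusted p = 0.00327). C1qa held 69.4, 85.9, 105, 126 and 134 CPM against 156, 166, 193, 195 and 179 CPM (0.76, SE 0.151, adjusted p = 0.0114). The groups were separate for these 3 genes and also for C5ar1 (0.55, SE 0.111, adjusted p = 0.0137) and Itgam (0.91, SE 0.201, adjusted p = 0.0183). C1qb overlapped (0.55, SE 0.148, adjusted p = 0.0448) and lost the call in 7 of the 10 fits that left out 1 library.

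C3 and C4b did not pass in input. C3 held 28.4, 26.9, 12, 19.8 and 15.4 CPM in control and 38.7, 16.3, 16.9, 13.9 and 21.7 CPM in ECL pools (0.06, SE 0.274, adjusted p = 0.934), with a wide spread in both groups. C4b held 23.9, 40.4, 26, 35.8 and 37.2 CPM against 31.4, 28.4, 33.6, 22.1 and 34.7 CPM (-0.13, SE 0.155, adjusted p = 0.723). Serping1 (0.31, SE 0.113, adjusted p = 0.134) and C1qc (0.44, SE 0.214, adjusted p = 0.272) also did not pass. Of the 14 microglial markers 6 were called higher, with sums of 719 to 1084 CPM and 918 to 1612 CPM. Of the 10 astrocyte markers 1 was, and Ly6c2 and S100a9, markers of blood-derived myeloid cells, were at 0 in all 24 libraries. The part of these cell types was not tested.

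In coIP RNA, C3ar1 alone was called higher after ECL, at 49.7, 45, 53.2, 58.4 and 58.9 CPM in control and 74.2, 78, 80.5, 76.6 and 82.6 CPM in ECL libraries (0.58, SE 0.102, adjusted p = 0.0286), where 0.222% of 18449 genes were called higher. This call was lost with 7 of the 10 single libraries left out, at log2 fold changes of 0.53 to 0.63. Itgam (0.82, SE 0.243, adjusted p = 0.192) and Itgb2 (0.67, SE 0.174, adjusted p = 0.134) gave larger values with more spread. DESeq2 called 3 of the 10. The lesion change did not pass the test for a difference between coIP and input for any of the 10 (differences of -0.29 to 0.09, 0 of 19581 genes called, no member at an unadjusted p under 0.05).

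**Figure D4:**
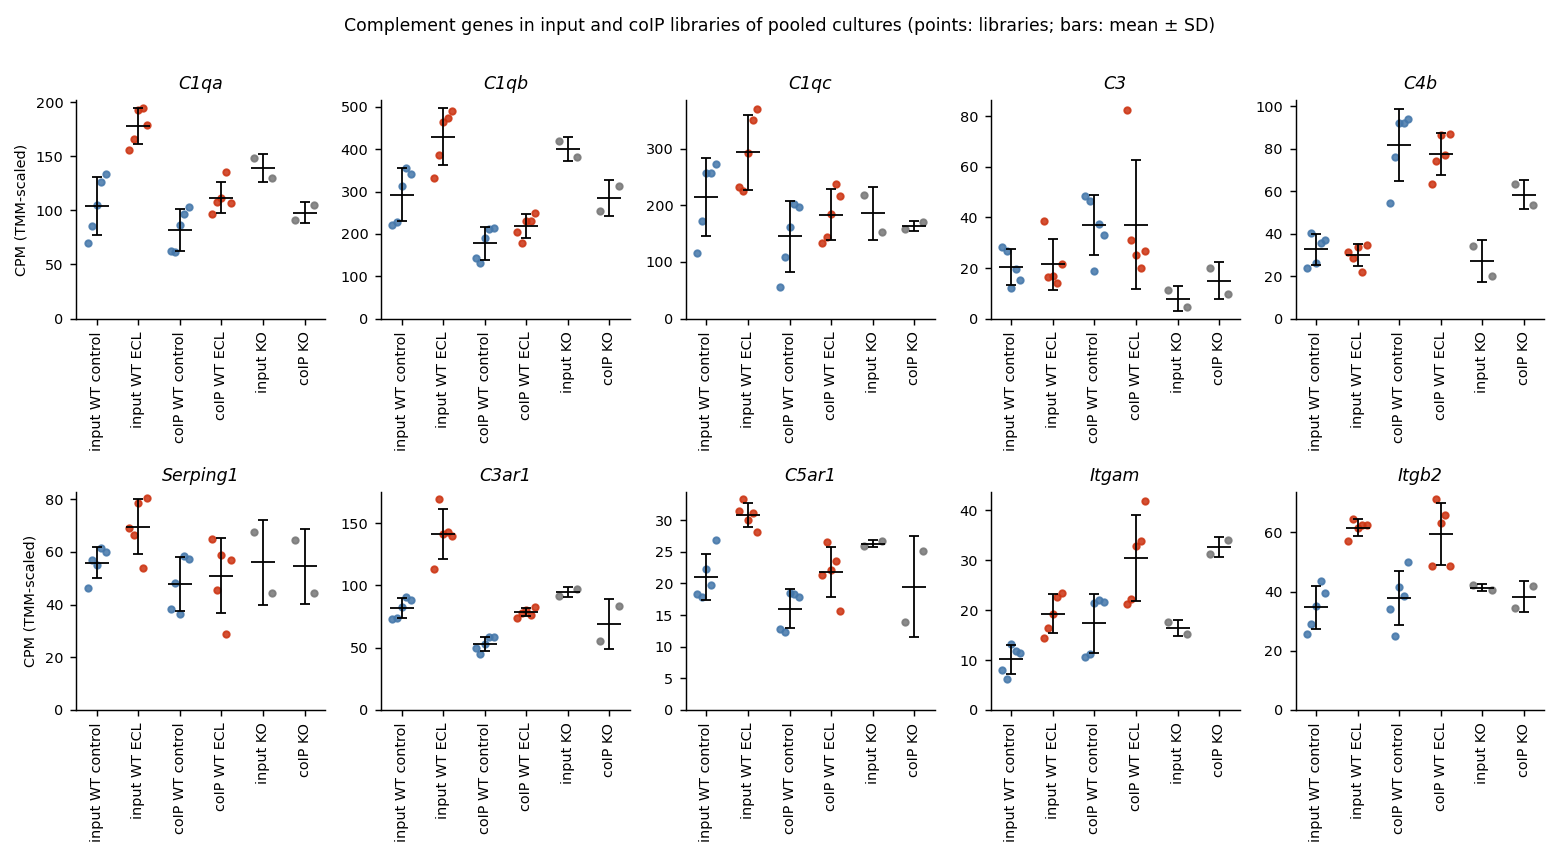
CPM of the 10 complement genes in the 24 input and coIP libraries of pooled cultures, with points for libraries (blue control, red ECL, grey labelled synaptopodin deficient) and bars for the mean ± SD. C4b lies higher in each coIP group than in its input group without overlap, and C3ar1 lies lower.

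The synaptopodin coIP was compared with its input to ask which RNAs were recovered with the antibody. In WT control cultures C4b, C3 and Itgam were higher in coIP than in input, where 29.6% of 18222 genes were higher, and C1qb, C3ar1 and C5ar1 were lower, where 25.5% were lower. With 55.0% of all genes called, 6 of 10 is close to the background. C4b held 23.9, 40.4, 26, 35.8 and 37.2 CPM in input and 54.5, 76.2, 92.2, 92.3 and 94.1 CPM in coIP (log2 fold change 1.34, SE 0.171, adjusted p = 1.31e-05). C3 held 28.4, 26.9, 12, 19.8 and 15.4 CPM in input and 48.6, 46.7, 19, 37.6 and 33.2 CPM in coIP, an overlap between groups but higher in coIP in 5 of 5 pairs (0.87, SE 0.251, adjusted p = 0.00835). Itgam was likewise higher in 5 of 5 pairs, at 1.34 to 1.89 times its input (0.79, SE 0.245, adjusted p = 0.0134).

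C1qb was lower in coIP in 5 of 5 pairs, at 0.572 to 0.638 times its input (-0.70, SE 0.166, adjusted p = 0.00247). C3ar1 was lower by a like amount, at 0.607 to 0.683 times its input (-0.61, SE 0.101, adjusted p = 0.000153), and C5ar1 at 0.663 to 0.928 times (-0.38, SE 0.152, adjusted p = 0.0456), a call lost in 5 of the 10 fits that left out 1 library. Input and coIP of a number came from the same lysate, and with the replicate as a block C1qa (-0.32, adjusted p = 0.00111), C1qc (-0.62, adjusted p = 7.91e-06) and Serping1 (-0.22, adjusted p = 0.0324) were also lower, which made 9 of 10, where 62.5% of all genes were called with the block. Itgb2 did not pass in either fit (0.15, SE 0.175, adjusted p = 0.501). Its partner Itgam was higher, and per length the ratio of Itgb2 to Itgam was 5.8 ± 1.21 in input and 3.77 ± 0.922 in coIP (SD, n = 5 each).

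In WT ECL cultures the 6 genes called in WT control took the same sides. C4b (1.39, SE 0.135, adjusted p = 3.49e-06) and Itgam (0.67, SE 0.194, adjusted p = 0.00848) were higher in coIP, where 30.5% of 18229 genes were higher. C1qb (-0.96, SE 0.127, adjusted p = 2.81e-05), C3ar1 (-0.83, SE 0.107, adjusted p = 2.16e-05), C1qc (-0.66, SE 0.184, adjusted p = 0.0068), C1qa (-0.65, SE 0.111, adjusted p = 0.000193), C5ar1 (-0.48, SE 0.131, adjusted p = 0.00651) and Serping1 (-0.43, SE 0.178, adjusted p = 0.0491) were lower, where 27.8% were lower. Serping1 lost the call with 6 of the 10 single libraries left out. C3 was higher in 5 of 5 pairs, with 1 coIP library at 82.4 CPM and the others at 20.2 to 31.2 CPM, and gave 0.80 (SE 0.356, adjusted p = 0.0669), or 0.72 (adjusted p = 0.000443) with the replicate as a block, where 62.4% of all genes were called.

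In cultures labelled synaptopodin deficient, which lack the target of the antibody by their label, the coIP gave those 6 genes values on the same sides. C4b held 34.2 and 20.2 CPM in input and 63.2 and 53.5 CPM in coIP (1.07, SE 0.211, adjusted p = 0.0028). Itgam held 17.6 and 15.3 CPM in input and 31.2 and 34.1 CPM in coIP (0.96, SE 0.158, adjusted p = 0.00105). Both were higher in both pairs, where 15.0% of 20892 genes were higher. C1qa (-0.54, SE 0.139, adjusted p = 0.0121) and C1qb (-0.53, SE 0.143, adjusted p = 0.0147) were lower, where 16.4% were lower, and both lost the call without input replicate 1 (-0.43, adjusted p = 0.113, and -0.45, adjusted p = 0.0984). With the replicate as a block C3 (0.94, adjusted p = 0.000169), C3ar1 (-0.52, adjusted p = 0.00781) and C5ar1 (-0.52, adjusted p = 0.0178) were added, where 35.8% of all genes were called. These pairs follow the preparation number of the labels, and the labels' replicate number joins them the other way. The coIP to input change did not pass the test for a difference between labelled synaptopodin deficient and WT control cultures for any of the 10, with differences of -0.24 for Itgb2 (SE 0.304) to 0.38 for C1qc (SE 0.517), adjusted p of 0.917 or more and none at an unadjusted p under 0.05, in edgeR and in DESeq2. With 2 pairs the intervals of these differences are wide: for C4b the value was -0.23 with an SE of 0.328.

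**Figure D5:**
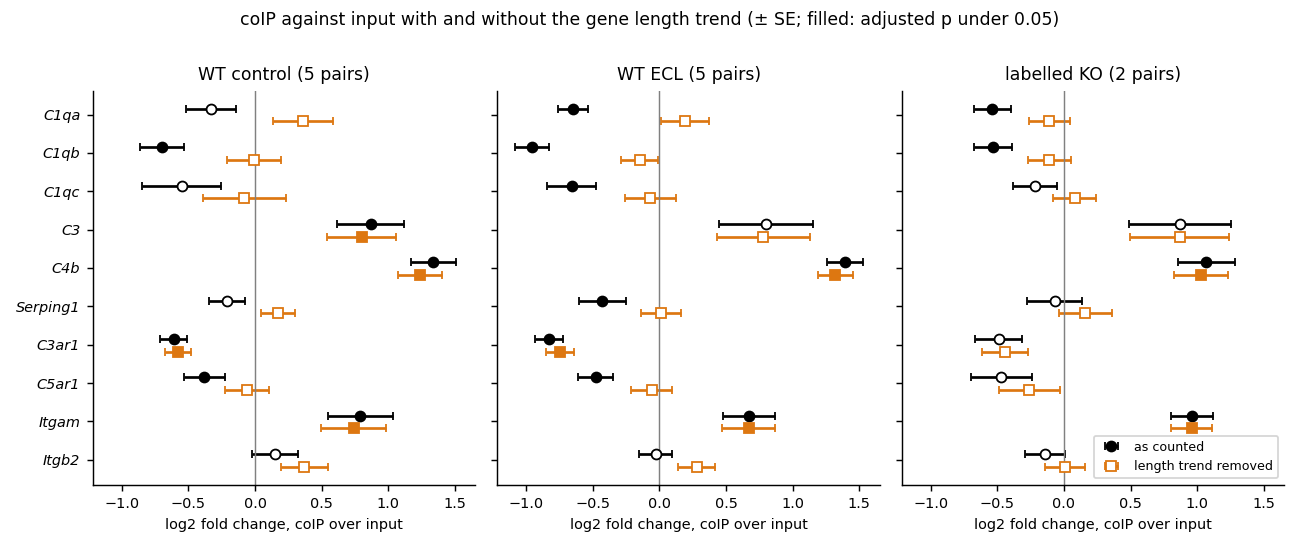
Log2 fold change (± SE) of coIP over input for the 10 complement genes in WT control, WT ECL and labelled synaptopodin deficient cultures, as counted (circles) and after removal of the trend with gene length (squares), with filled symbols for adjusted p under 0.05. The C1q genes move to within 0.36 of 0 without the length trend, whereas C4b, C3, Itgam and C3ar1 keep their sign.

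Gene length moved with the coIP result. The C1q genes, with 1040 to 1931 exonic bp, were lower in coIP, and C4b, C3 and Itgam, with 5024 to 5695 bp, were higher. After removing the trend of fold change with length over all genes, C1qb gave -0.01 in WT control (adjusted p = 0.975) and -0.15 in WT ECL (adjusted p = 0.397), C1qc gave -0.08 and -0.07, and C5ar1 gave -0.06 in both. C1qa changed sign, to 0.36 (adjusted p = 0.19) and 0.19 (adjusted p = 0.39). C4b remained higher at 1.24 (adjusted p = 3.02e-05) and 1.32 (adjusted p = 4.82e-06), as did Itgam at 0.74 (adjusted p = 0.0198) and 0.67 (adjusted p = 0.012), and C3 in WT control at 0.80 (adjusted p = 0.0172). C3ar1, with 4305 exonic bp, remained lower at -0.58 (adjusted p = 0.000197) and -0.75 (adjusted p = 5.31e-05). As counted, with the length trend kept, 6 and 9 of the 14 microglial markers were lower in coIP in WT control and WT ECL, and none was higher. Of all genes 25.5% and 27.8% were lower there.

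Other genes of the pathway were read from a list of 48 complement genes. In WT DG after ECL 39 could be tested, with a median log2 fold change of -0.00. Among those called, Clu, the fluid-phase inhibitor clusterin, rose by 0.70 (SE 0.12, adjusted p = 0.00239). Csmd1, a membrane regulator of complement, fell by 0.43 on the log2 scale (SE 0.0931, adjusted p = 0.011), Cd46, a membrane cofactor, by 0.70 (SE 0.175, adjusted p = 0.0212), and Colec10, a collectin with a mean of 14.2 normalized counts, by 1.48 (SE 0.455, adjusted p = 0.046). Of the 12 initiators tested 1 was called, and none of 5 terminal components and none of 5 other receptors was, beside 12.2% of all genes called in either direction.

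In labelled Synpo-/- DG 37 of the 48 could be tested, of which Clu (0.55, SE 0.117, adjusted p = 0.00805) and the collectin Colec12 (0.71, SE 0.177, adjusted p = 0.0192) were higher and Csmd3 was lower (-0.40, SE 0.119, adjusted p = 0.0456). These 3 of 37 are close to the 8.53% of all genes called in either direction. None was called in CA3 in either labelled genotype or in coIP RNA, and in input RNA Colec12 alone was (higher). Between coIP and input of WT control cultures 15 of 34 were higher and 4 lower, where 29.6% and 25.5% of all genes were. The 19 of 34 called in either direction are close to the 55.0% of all genes called. The values that follow are as counted, with the length trend kept. Those with the smallest p were Csmd1 (1.20, SE 0.0928, adjusted p = 3.4e-07), Sez6l2 (1.01, SE 0.101, adjusted p = 1.74e-06) and Lrp1, an endocytic receptor (1.27, SE 0.176, adjusted p = 2.95e-05). These 3 were also higher in the coIP of cultures labelled synaptopodin deficient, at 1.16, 0.58 and 0.95.

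Across the 39 regional libraries, which share groups and lesion state, the C1q chains were close to each other, with Pearson's r of log2(CPM + 1) between 0.906 and 0.951 over 3 pairs. With the mean of each group removed, these were 0.632 to 0.838. C3 and C4b were less close to the other members. C3 gave r of 0.473 to 0.688 and C4b 0.541 to 0.761, and with group means removed -0.30 to 0.650 and -0.198 to 0.650, where the highest value of each was with the other. Among 11504 genes with a mean of at least 5 CPM, C1qa was most like Lgals3bp (0.949), Capg (0.946) and Mmd2 (0.941), C1qb most like Olfml3 (0.966), Ctsz (0.961) and Rac2 (0.961), and C1qc most like Olfml3 (0.956), Gusb (0.955) and Fcrls (0.940). C3 was most like Lcn2 (0.908), Ube2z (0.816) and Homez (0.807), and C4b most like Ctsd (0.903), Slc9a3r1 (0.882) and Pbxip1 (0.867). Serping1 was most like Ifitm3 (0.936), Anxa2 (0.935) and Rab29 (0.929). For the receptors these genes were Arhgdib (0.935), Ms4a6d (0.926) and Fcgr3 (0.921) for C3ar1, Cd72 (0.916), Fcgr2b (0.913) and Fcgr1 (0.913) for C5ar1, Fcrls (0.924) and Gusb (0.917) for Itgam, and Ctsh (0.891), Slc14a1 (0.889) and Gusb (0.885) for Itgb2. These correlations are descriptions across libraries of several groups and carry no test. With group means removed, 7 of the 10 kept none of their 3 genes, whereas Lcn2 (0.765) was still among those of C3, Arhgdib (0.878) among those of C3ar1 and Cd72 (0.825) and Fcgr2b (0.778) among those of C5ar1.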

How the data were processed

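Raw read counts per gene were deposited by the authors for 63 libraries. Per the labels and the study's methods, reads were trimmed (cutadapt 3.5), mapped to mm10 (STAR 2.7.8a) and counted without strand over GENCODE M25 exons (featureCounts 2.0.1), and libraries with over 60% uniquely mapped reads were kept; for the knockout coIP samples the notes name tools without versions. Counts without strand cannot be split between overlapping genes. Counts were tested with edgeR 4.0.16 in R 4.3.3 (quasi-likelihood test, TMM scaling, filterByExpr, Benjamini-Hochberg adjustment over all genes tested, called at adjusted p under 0.05) on the groups of each of 23 comparisons; on simulated data, 181 to 200 of 200 genes changed 4-fold, more than any member here, were recovered per comparison, with up to 21 unchanged genes called. Alternatives were DESeq2 1.42.0, RLE scaling, no filter, removal of the gene length trend (lowess), a replicate block, a required mean of over 300 normalized counts, 1 library left out, and, added after seeing the data, libraries split by Xist. Input and coIP numbers pair samples of the same lysate (correlation of deviations 0.31 to 0.682, 0.139 to 0.716 and 0.108). Whether other numbers pair samples is not given by the labels, and the main tests assumed no pairing. Between DG and CA3 of labelled Synpo-/- control cultures this correlation was 0.0606 to 0.479 (median 0.361, the highest outside the coIP pairs). There, 4 of 6 numbers were closest to their own number. For the pools labelled synaptopodin deficient, the preparation number of the titles was used, since their replicate number crosses it. SE is the size of the log2 fold change over the square root of F. Libraries held at least 11601154 counted reads, which covers counting error only. Exon lengths are the union of exons in the deposited annotation. Members and gene lists were chosen with earlier results of these data known. The other genes named are complement genes called in a regional lesion comparison (up to 8 by p) and the 3 with the smallest p between coIP and input of WT control. Likeness is Pearson's r of log2(CPM + 1), computed in Python 3.11.15, 3 genes each. Some genes that these rules name are not reported here.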

Additional observations from a re-analysis of the deposited data

Results flagged for a closer look

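Of 100 checks of a member's CPM in a group of 4 to 10 libraries, 5 found a highest library far from the others, and chance gives about 1 in 20. Control replicate 2 of labelled Synpo-/- DG held 84.7 CPM of C1qa, where the other 6 libraries held 43.6 to 59.7 CPM, and 336 CPM of C1qb, where the others held 165 to 230 CPM. ECL replicate 1 of labelled Synpo-/- DG held 40.9 CPM of C3 against 20.2 to 23.2 CPM and 34.2 CPM of Itgam against 25.4 to 26.5 CPM. Replicate 1 of WT ECL coIP held 82.4 CPM of C3 against 20.2 to 31.2 CPM, and the input of the same lysate, at 38.7 CPM, was also the highest of its group.

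The lesion change differed between DG and CA3 of cultures labelled Synpo-/- by an interaction test for C1qc (1.48 on the log2 scale), C1qa (1.39), C1qb (1.04) and Itgam (0.95).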

How the results depend on the processing

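Counts here are of the 10 members called at an adjusted p under 0.05, and the cause of each change was not tested. DESeq2 called 6 in WT CA3 after ECL (2 in edgeR), 3 in WT coIP (1), 1 and 4 between labelled genotypes in DG and CA3 control (0 and 0), 2 for genotype by lesion in CA3 (0) and 8 for region by lesion in labelled Synpo-/- cultures (4). RLE scaling called 1 in WT CA3. Without the filter on low counts 8 were called in WT CA3, 3 in WT coIP, 1 and 5 between labelled genotypes in DG and CA3 control, 7 between coIP and input of cultures labelled synaptopodin deficient (4) and 2 for genotype by lesion in CA3. With the length trend removed 1 was called in WT CA3, 1 between regions of WT ECL cultures (0), 3 between coIP and input of WT ECL cultures (8) and 2 of those labelled synaptopodin deficient, and in WT ECL coIP over input C1qa (0.19) and Serping1 (0.01) turned positive. One fit of all 4 groups called 0 in WT CA3. Libraries with more Xist than Y-linked reads, a choice made after seeing the data, gave 5 in WT CA3, with 1 ECL library and the spread from the 2 controls alone, and 1 in labelled Synpo-/- CA3 (0). Requiring a mean of over 300 normalized counts as well left 8 calls in WT DG, 7 in labelled Synpo-/- DG and 5 for coIP over input of WT control cultures, and the same number in the other comparisons where it was tried.

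The replicate number as a block gave 0 calls in WT coIP after ECL, 2 between regions of WT ECL cultures, 6 between labelled genotypes in CA3 control, 3 for region by lesion in labelled Synpo-/- cultures, and, where numbers pair a lysate, 7 for coIP over input of cultures labelled synaptopodin deficient. Outside the coIP pairs the labels give only a shared number and not whether it marks a shared culture. A call gained or lost there is therefore no measure of strength. The block also gave 8 calls in labelled Synpo-/- DG, 7 in WT input and 5 between regions of labelled Synpo-/- control cultures.

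Leaving out 1 library at a time gave 0 to 6 calls in WT CA3, 0 to 1 in WT coIP, 0 to 1 between regions of WT ECL cultures, 3 to 5 and 4 to 7 between regions of labelled Synpo-/- control and ECL cultures, 0 to 2 and 0 to 1 between labelled genotypes in DG and CA3 control, 5 to 8, 7 to 8 and 3 to 7 for coIP over input of WT control, WT ECL and labelled synaptopodin deficient cultures, 2 to 7 for region by lesion in labelled Synpo-/- cultures, 9 to 10 in labelled Synpo-/- DG and 5 to 6 in WT input.

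Over all genes, calls in WT CA3 went from 397 to 1457 (DESeq2), 258 (RLE), 2716 (no filter), 96 (length trend), 1 (all 4 groups) and 1715 (more Xist). Those in labelled Synpo-/- DG went from 1989 to 698 (block), 990 (more Xist) and 517 (more Y-linked reads), those in labelled Synpo-/- CA3 from 16 to 68 (DESeq2), 86 (no filter), 25 (length trend), 34 (block), 133 (more Xist) and 55 (more Y-linked reads), those in WT input from 1007 to 1676 (DESeq2), and those in WT coIP from 58 to 357 (DESeq2), 239 (no filter) and 1 (block). Between regions, calls went from 1382 to 581 (block) in WT control and from 492 to 1342 (DESeq2), 1190 (no filter) and 5018 (block) in WT ECL. The 4 genotype comparisons called 1 to 4 genes, which DESeq2 raised to 259 and 12 in DG and to 834 and 21 in CA3, the missing filter to 58, 7, 1022 and 37, and the block to 2461 and 293 in CA3. Genotype by lesion in CA3 went from 0 to 383 (DESeq2), 160 (no filter) and 19 (block), region by lesion from 0 to 10, 1 and 35 in WT and from 284 to 677 (DESeq2) and 177 (block) in labelled Synpo-/- cultures, and genotype by fraction from 0 to 60, 55 and 61. The shallowest library held 11601154 counted reads, and C5ar1 rested on as few as 36.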
